A study of Mus musculus with 9 samples.

Results

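Interferon-stimulated genes are the transcripts that cells raise when type I or type II interferon reaches them, and 37 listed genes, that for interferon beta among them, were described here across 3 states of one engineered mouse fibroblast line. They were taken by symbol from a list that named Ifnb1, the Ifit, Oas, Mx, Gbp and Irgm families and genes of ISG15 conjugation and antigen presentation. Of the 37, 33 had a probe set with 1 gene symbol, out of 22180 genes with one. Dtx3l, Gbp2 and Oas1a lay only on probe sets shared with other genes and Ifi44 on none named for it, so these 4 were not analysed here. Where a gene had several probe sets, the one with the highest mean over the 9 arrays stood for it, which concerned Ifi35 and Tapbp.

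The series holds 9 one-colour arrays, 3 per group. In the washout group, cells received 50 nM B/B for 1 h, were sorted as positive for annexin V and then spent 6 h in washout, which the design text gives as 3000 nM of a compound it does not name. In the B/B 1 h group, cells received the same B/B treatment and sort with no washout. Control cells had a treatment labelled only as control, and the labels do not say whether they were sorted or when they were harvested, so against control the agent, the sort and the harvest time cannot be told apart. In both comparisons of the washout group, the unnamed compound and the 6 h cannot be told apart either. All groups share the line hMLKL1-181-2Fv-NIH3T3, NIH3T3 mouse fibroblasts named for a stretch of human MLKL joined to Fv domains, and the labels do not say whether it is 1 clone. B/B brings Fv domains together. MLKL is the pseudokinase that breaches the plasma membrane in necroptosis, and annexin V binds phosphatidylserine exposed on a dying or damaged cell.

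Type I interferon is made after sensors of foreign or misplaced nucleic acid signal through the kinase TBK1 to the factor IRF3. It then binds the receptor IFNAR, whose kinases JAK1 and TYK2 phosphorylate STAT proteins, which with IRF9 bind the interferon-stimulated response element (ISRE) in the promoters of the genes they induce. Fibroblasts are classic producers of interferon beta and respond to it strongly, and many interferon-stimulated genes are nearly silent until then.

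The response element is a sequence known from many promoters of this kind, and its core was looked for in promoter windows of RefSeq, assembly GRCm38.p6, which run from 250 bases before to 50 bases after a start site. The core searched was GAAA, any 2 bases and GAAA again, on either strand, with cores allowed to overlap. Of 27025 genes with a window, 3.99% held the core, against 14 of 26 measured members with a window (53.8%). The windows below are the 3 members that both differed between washout and control and held the core, followed by 2 textbook interferon targets that held it, chosen after their values were seen. They are written 5′ to 3′ on the gene's own strand, with the core in capitals.
Irgm1 (chr11:48871371-48871670, minus strand): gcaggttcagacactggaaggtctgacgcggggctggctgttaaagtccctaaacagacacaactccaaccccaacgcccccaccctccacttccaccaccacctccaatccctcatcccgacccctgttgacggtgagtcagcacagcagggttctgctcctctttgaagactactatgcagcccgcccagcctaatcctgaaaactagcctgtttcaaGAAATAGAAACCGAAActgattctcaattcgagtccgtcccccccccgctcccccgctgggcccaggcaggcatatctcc
Ifitm3 (chr7:141010695-141010994, minus strand): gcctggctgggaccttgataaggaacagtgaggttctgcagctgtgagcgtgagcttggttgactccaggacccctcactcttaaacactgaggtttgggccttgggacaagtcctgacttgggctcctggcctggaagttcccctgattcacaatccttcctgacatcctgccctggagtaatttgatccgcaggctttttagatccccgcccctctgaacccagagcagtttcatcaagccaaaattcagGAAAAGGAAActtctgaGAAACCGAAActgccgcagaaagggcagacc
Eif2ak2 (chr17:78882523-78882822, minus strand): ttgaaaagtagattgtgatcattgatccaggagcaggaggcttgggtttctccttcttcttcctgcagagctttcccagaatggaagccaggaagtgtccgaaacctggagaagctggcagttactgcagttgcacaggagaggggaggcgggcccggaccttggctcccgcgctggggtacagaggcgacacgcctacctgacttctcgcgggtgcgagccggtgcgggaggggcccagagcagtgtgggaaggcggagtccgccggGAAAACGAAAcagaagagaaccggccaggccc
Isg15 (chr4:156200769-156201068, minus strand): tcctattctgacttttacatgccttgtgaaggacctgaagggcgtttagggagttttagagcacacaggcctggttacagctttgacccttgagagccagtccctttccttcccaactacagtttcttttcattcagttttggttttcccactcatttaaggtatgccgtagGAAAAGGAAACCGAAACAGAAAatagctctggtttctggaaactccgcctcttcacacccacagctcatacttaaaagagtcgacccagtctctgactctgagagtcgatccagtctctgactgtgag
Ifit1 (chr19:34640639-34640938, plus strand): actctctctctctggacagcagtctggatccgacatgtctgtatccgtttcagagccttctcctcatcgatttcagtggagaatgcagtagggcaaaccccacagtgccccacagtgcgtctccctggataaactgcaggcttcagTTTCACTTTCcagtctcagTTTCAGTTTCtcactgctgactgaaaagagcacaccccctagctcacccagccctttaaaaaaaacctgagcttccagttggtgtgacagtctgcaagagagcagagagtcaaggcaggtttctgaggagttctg
The 3 cores of Isg15 overlap each other and begin 78, 72 and 66 bases before the start site. The 2 cores of Ifit1, both on the opposite strand, begin 104 and 85 bases before it, and the 2 of Irgm1, which overlap, 30 and 24 bases before it. In Ifitm3 and Eif2ak2 the cores lie after the start site. A match describes letters in a window and is no evidence that a factor was bound there.

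Levels below are the deposited log2 probe set values, where base 2 was inferred from the values. A difference was called at an adjusted p under 0.05 in limma, with Benjamini-Hochberg adjustment over all 22180 genes and all 9 arrays in 1 model. A level of one gene cannot be set against that of another on such arrays. Array medians lay between 4.60 and 4.68. Those of the washout arrays, 4.60 to 4.62, lay below those of all other arrays, 4.63 to 4.68. Arrays correlated across genes, which are not independent replicates, at 0.998 to 0.999 within groups and 0.990 to 0.998 between them. B/B 1 h replicate 1 had the lowest weight when arrays were weighted by their fit, 0.563. The labels name no separate cultures within a group, so p-values reflect only how these samples vary, and that variation may be technical. Of 13 fibroblast markers, 2, Lum and Postn, were among the lowest 30% of genes by mean. After washout 2 of the 13 were higher and 7 lower than in control, beside 14.5% and 11.7% of all genes. The summed linear signal of these markers was 18749 to 18854 in washout, 20818 to 20879 in B/B 1 h and 20238 to 20674 in control arrays. The part of this in the results was not tested.

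Across the 3 states the interferon-stimulated genes differed by small amounts, much as most genes on the arrays did. Of the 33, 0 differed by 2-fold in any comparison, but neither did most genes: 0.185% of all genes did between B/B 1 h and control, 1.02% between washout and control and 1.24% between washout and B/B 1 h, so the count of 0 sets the members apart from nothing. The median absolute log2 difference was 0.05, 0.11 and 0.12 over the members in those comparisons and 0.07, 0.09 and 0.11 over all genes. All 33 had 95% intervals of the log2 difference (unadjusted for the number of genes) inside -1 to 1 in each of the 3 comparisons. The limma F-test called 8 of 33 members among the 3 groups, against 29.5% of all genes. Pairwise, 7 members were called in at least 1 comparison: the RNA-sensing and sensor-linked genes Trim25, Znfx1 and Eif2ak2, the effector genes Xaf1, Isg20 and Ifitm3, and the GTPase gene Irgm1. The other 26 were called in none. The share of all genes called in at least 1 comparison was not counted. In the single comparisons it was 2.89%, 26.2% and 28.6%, in the order above. The F-test added Gbp7, a guanylate-binding protein gene.

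**Figure D1:**
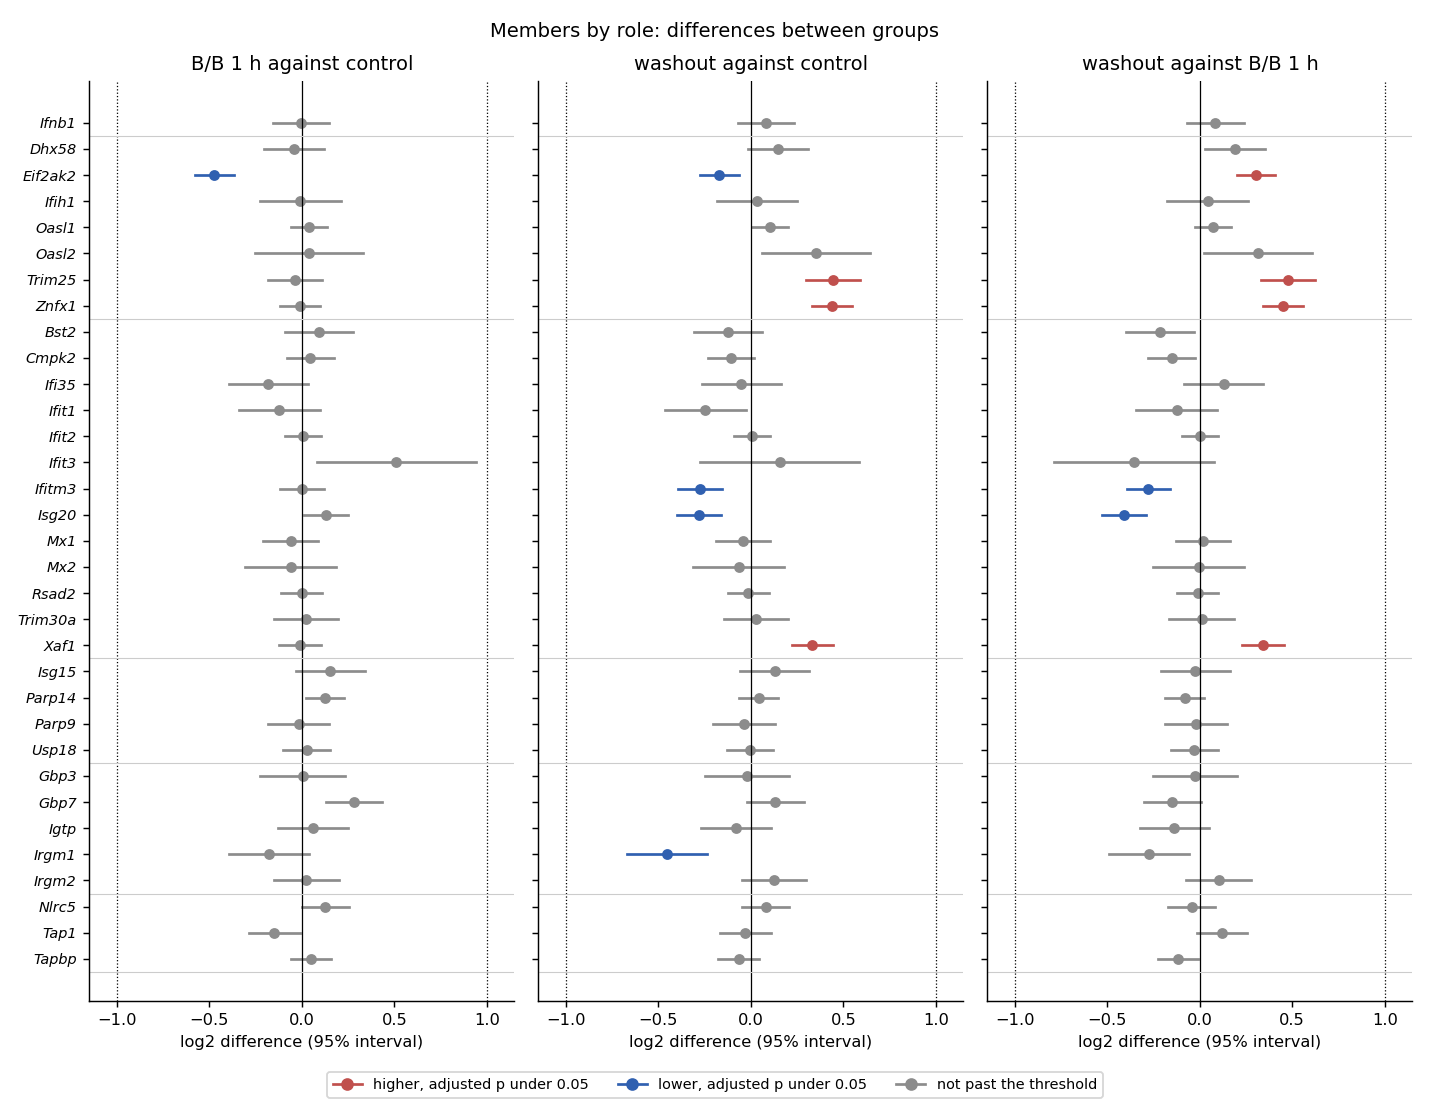
Each point is the log2 difference of 1 member between 2 groups and each bar its 95% interval, with one panel per comparison of groups, horizontal rules between role classes, and dotted lines at 2-fold. All 33 bars stay inside the dotted lines in all 3 panels, and 7 members carry a called difference in at least 1 panel. Of all genes, 2.89% were called between B/B 1 h and control, 26.2% between washout and control and 28.6% between washout and B/B 1 h.

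Between B/B 1 h and control the question was whether the genes had moved by the time cells exposed phosphatidylserine, and 1 member fell while 0 rose. Eif2ak2, which encodes PKR, the double-stranded RNA-activated kinase that halts translation, read 6.08, 6.05 and 5.97 in B/B 1 h arrays, against 6.51, 6.52 and 6.51 in control arrays. All 3 B/B 1 h arrays lay below all 3 control arrays. The log2 difference was -0.47 ± 0.047 (SE), a fall to 0.720 of the control level (limma adjusted p 6.2e-04). By limma, 0 of 33 members were higher and 1 (3.03%) lower, against 1.01% and 1.88% of all genes in those directions and 2.89% in either. At an unadjusted p under 0.05 in limma, 4 members (12.1%) were higher and 2 lower, against 8.16% of all genes higher and 2287 of 22180 lower. These all-gene values stand beside the unadjusted counts at 1 h below. The median difference of the members was 0.00 and that of all genes 0.00. Arrays of both groups did not overlap in 7 of 33 members (21.2%), against 21.3% of all genes.

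The 2 largest positive differences at 1 h were not called. Gbp7 read 3.71, 3.80 and 3.68 in B/B 1 h arrays, against 3.35, 3.56 and 3.44 in control arrays, with no overlap. Its difference was 0.28 ± 0.068 (log2, SE), with a limma adjusted p of 0.0623, or 0.0499 when the variance was allowed to trend with the mean, the one alternative in which a member was called higher at 1 h. Its probe set was among the dim ones, the lowest 30% of genes by mean, and such signal was not separated from background here. Ifit3, whose protein binds viral RNA together with IFIT1, read 6.52, 5.84 and 5.78 in B/B 1 h arrays, against 5.62, 5.42 and 5.56 in control arrays. The first B/B 1 h array stood above the other two, and without it the log2 difference of 0.51 became 0.28 (limma adjusted p 0.198 with it and 0.410 without).

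The comparison of washout with control asks how the genes stood after the agent had been withdrawn for 6 h. Of the members, 3 rose and 4 fell, and the largest change was 1.37-fold. Higher were 3 of 33 (9.09%), against 14.5% of all genes, and lower 4 (12.1%), against 11.7%, so that 7 members (21.2%) were called where 26.2% of all genes were. At an unadjusted p under 0.05 in limma, 5 members (15.2%) were higher and 5 lower, against 18.3% of all genes higher and 3474 of 22180 lower. These all-gene values stand beside the unadjusted counts for washout against control below. Arrays did not overlap in 10 members (30.3%), against 38.0% of all genes. The members' median difference was 0.00, as was that of all genes. The 2 comparisons with control share the control arrays.

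The comparison of washout with B/B 1 h asks what changed within cells sorted in the same way. Washout cells differ from these by both the 6 h and the unnamed compound, which cannot be told apart. Higher were 4 of 33 (12.1%), against 16.6% of all genes, and lower 2 (6.06%), against 12.0%, or 6 of 33 (18.2%) in either direction, against 28.6%. Arrays did not overlap in 12 members (36.4%), against 39.6% of all genes. The median difference was -0.01 over the members and -0.02 over all genes. This comparison shares its arrays with the other two. The count of 2 lower was 4 without washout replicate 1, when Bst2 at -0.28 and Cmpk2 at -0.20 passed (limma adjusted p 0.0334 and 0.0270). No called member changed sign under any alternative.

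Interferon beta came first in order of role. Ifnb1 read 3.53, 3.56 and 3.49 in washout arrays, 3.50, 3.32 and 3.50 in B/B 1 h arrays, and 3.32, 3.52 and 3.50 in control arrays. The 3 groups overlapped. The log2 difference was 0.08 ± 0.068 (SE) between washout and control (95% interval -0.07 to 0.23, limma adjusted p 0.482) and 0.00 ± 0.068 between B/B 1 h and control (-0.16 to 0.15, adjusted p 0.981). The probe set was in the lowest 30% of genes by mean, so an induced transcript would have had to rise clear of background to be seen.

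Of 7 measured sensors and their regulators, 2 were higher and 1 lower in washout than in control, beside 14.5% and 11.7% of all genes. Trim25, the ubiquitin ligase known for activating the RNA sensor RIG-I, read 8.83, 8.73 and 8.79 in washout arrays, 8.16, 8.36 and 8.39 in B/B 1 h arrays, and 8.39, 8.31 and 8.31 in control arrays. Every washout array lay above every other array, while B/B 1 h and control overlapped. Washout was 1.36-fold above control and 1.39-fold above B/B 1 h (limma adjusted p 6.6e-04 and 3.6e-04). Znfx1, a helicase that senses double-stranded RNA at mitochondria, read 7.49, 7.53 and 7.42 in washout arrays, 7.00, 7.09 and 7.00 in B/B 1 h arrays, and 7.04, 7.00 and 7.09 in control arrays. Here too the washout arrays stood apart, at 1.36-fold over control and 1.37-fold over B/B 1 h (limma adjusted p 1.1e-04 and 8.1e-05).

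Eif2ak2 followed another course, low at 1 h and part of the way back after washout. Its washout arrays read 6.27, 6.37 and 6.37, which placed all of them between the B/B 1 h arrays and the control arrays given above. The log2 difference was 0.30 ± 0.047 (SE) between washout and B/B 1 h (limma adjusted p 8.0e-04) and -0.17 ± 0.047 between washout and control (limma adjusted p 0.0217). The call against control was lost without washout replicate 1 (-0.14, adjusted p 0.0830) and without control replicates 1, 2 or 3 (-0.17 each, adjusted p 0.0543, 0.0616 and 0.0556).

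The other measured sensors were not called. Ifih1, the long double-stranded RNA sensor MDA5, read 3.46 to 3.76 in washout, 3.44 to 3.77 in B/B 1 h and 3.60 to 3.66 in control arrays. Dhx58, which encodes LGP2, a helicase that modulates MDA5, differed by 0.15 between washout and control (95% interval -0.02 to 0.31). Oasl2, an interferon-induced relative of the 2-5A synthetases, read 3.96, 3.84 and 4.32 in washout arrays, against 3.68, 3.48 and 3.89 in control arrays, and these groups overlapped. Its difference of 0.35 ± 0.13 (log2, SE) had a limma adjusted p of 0.0782, which became 0.0373 without control replicate 3 and 0.0416 without washout replicate 2. Oasl1, its relative that represses translation of Irf7 mRNA, differed by 0.11 (95% interval 0.01 to 0.20, limma adjusted p 0.115).

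**Figure D2:**
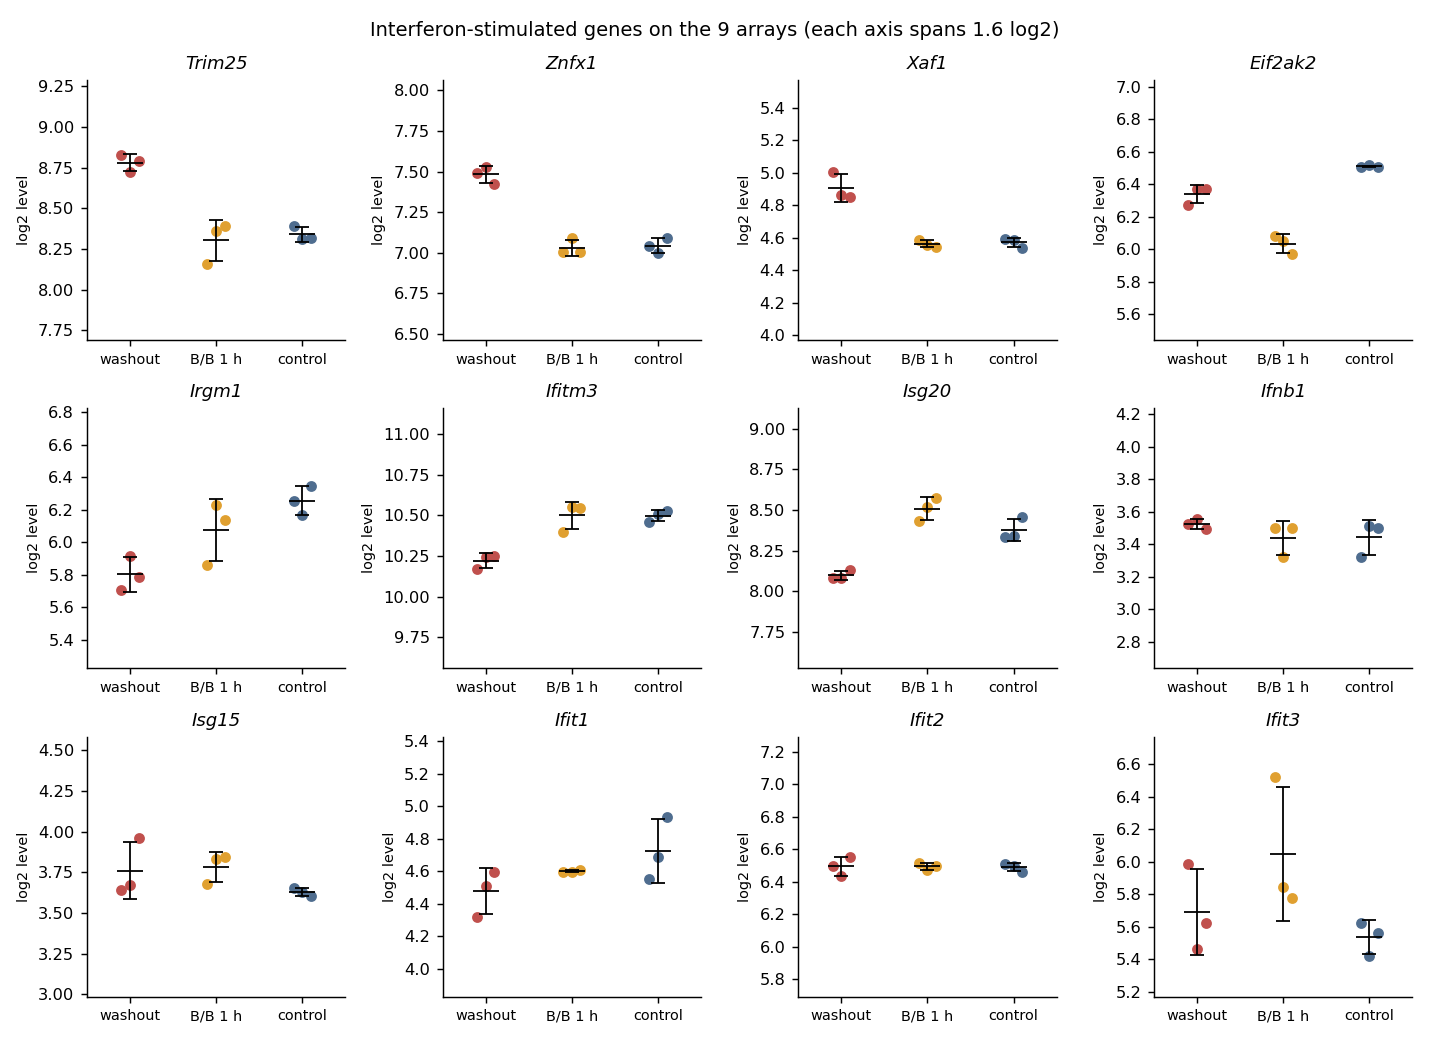
Each panel shows 1 gene with its log2 level on the 3 washout, 3 B/B 1 h and 3 control arrays as points, and the mean with SD as a bar; each vertical axis spans 1.6 log2 units around that gene's own values. Trim25, Znfx1 and Xaf1 are raised in washout arrays only, Irgm1, Ifitm3 and Isg20 are lowest there, Eif2ak2 is lowest at 1 h, and Ifnb1, Isg15, Ifit1 and Ifit2 overlap between washout and control.

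Antiviral effectors moved in both directions. Xaf1, whose product antagonises the caspase inhibitor XIAP, read 5.01, 4.86 and 4.85 in washout arrays, 4.59, 4.56 and 4.55 in B/B 1 h arrays, and 4.59, 4.59 and 4.54 in control arrays. It rose in washout to 1.26-fold of control and 1.27-fold of B/B 1 h (limma adjusted p 7.5e-04 and 5.8e-04), with no overlap in either case. Isg20, an exonuclease that degrades single-stranded RNA, read 8.08, 8.08 and 8.13 in washout arrays, 8.43, 8.52 and 8.57 in B/B 1 h arrays, and 8.33, 8.34 and 8.46 in control arrays. It fell in washout by 0.28 against control and by 0.41 against B/B 1 h (log2, limma adjusted p 0.00300 and 2.6e-04). Ifitm3, a membrane protein that blocks fusion of viruses with endosomes, read 10.17, 10.24 and 10.25 in washout arrays, 10.40, 10.55 and 10.55 in B/B 1 h arrays, and 10.46, 10.51 and 10.53 in control arrays. Its washout arrays lay below all others, with falls of 0.28 against control and 0.28 against B/B 1 h (log2, limma adjusted p 0.00306 and 0.00272).

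The other measured effectors were not called in any comparison. Ifit1, which binds viral RNA that lacks the host cap mark, read 4.32, 4.51 and 4.60 in washout arrays, 4.60, 4.60 and 4.61 in B/B 1 h arrays, and 4.55, 4.68 and 4.93 in control arrays. Of the 3 washout arrays, 2 lay below all control arrays and the groups overlapped. The difference from control was -0.25 ± 0.098 (log2, SE; limma adjusted p 0.103, or 0.0347 without control replicate 1). Ifit2, its neighbour, lay within 6.44 to 6.55 on all 9 arrays, and its difference between washout and control was 0.00 (95% interval -0.09 to 0.10). Rsad2, which encodes viperin, and Cmpk2, the nucleotide kinase gene beside it, differed from control by -0.01 and -0.11 after washout (95% intervals -0.12 to 0.10 and -0.23 to 0.02). Mx1 and Mx2, dynamin-like GTPases that trap viral particles, differed by -0.04 and -0.07 (-0.19 to 0.10 and -0.31 to 0.18), with both probe sets in the lowest 30% of genes by mean. Bst2, the tether that holds budding virions, Ifi35, Trim30a and Ifit3 had differences of -0.12, -0.05, 0.03 and 0.15 between washout and control. Of the 13 measured effectors, 1 was higher and 2 lower in that comparison, beside 14.5% and 11.7% of all genes. At an unadjusted p under 0.05 in limma these counts were 1 and 3.

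None of the ISG15 and ADP-ribosylation genes was called in any comparison. Isg15, the ubiquitin-like modifier, was dim and read 3.64, 3.67 and 3.96 in washout arrays, 3.68, 3.83 and 3.84 in B/B 1 h arrays, and 3.66, 3.63 and 3.61 in control arrays. The washout and control arrays overlapped, B/B 1 h arrays lay above control arrays, and the differences were 0.13 ± 0.083 and 0.15 ± 0.083 (log2, SE; limma adjusted p 0.333 and 0.357). Usp18, the protease that removes ISG15 and damps the receptor, lay within 4.66 to 4.85 on all 9 arrays and differed by 0.00 between washout and control (95% interval -0.13 to 0.12). Parp9 and Parp14, mono-ADP-ribosylation enzymes of the interferon response, differed by -0.04 and 0.04. Of these 4 genes, 1 was higher in B/B 1 h than in control at an unadjusted p under 0.05 (Parp14, 0.12), and 0 were called at that level in the comparisons of washout.

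Among the interferon-inducible GTPases, which attack the vacuoles of intracellular microbes, 1 of 5 was called. It was lower in washout than in control, as were 11.7% of all genes. Irgm1, a regulator of the family, read 5.70, 5.92 and 5.79 in washout arrays, 5.86, 6.23 and 6.14 in B/B 1 h arrays, and 6.26, 6.16 and 6.35 in control arrays. Washout arrays lay below control arrays and overlapped B/B 1 h arrays. The fall against control was 0.45 ± 0.096 (log2, SE; limma adjusted p 0.00596), to 0.731 of its level there. Against B/B 1 h the difference was -0.27 (limma adjusted p 0.0623), which passed the threshold in 5 alternatives and was -0.38 without B/B 1 h replicate 1 (adjusted p 0.00685). Irgm2, Igtp and Gbp3, with Gbp7 above, were all in the lowest 30% of genes by mean and differed by 0.13, -0.08 and -0.02 between washout and control. Whether probe sets also bind transcripts of close relatives, as in the Ifit, Gbp and Irgm families, was not examined.

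The 3 antigen presentation genes were not called. Tap1, the peptide transporter subunit, read 7.27, 7.40 and 7.29 in washout arrays, 7.13, 7.19 and 7.27 in B/B 1 h arrays, and 7.25, 7.43 and 7.36 in control arrays, and washout and control overlapped. Tapbp, which loads peptide on MHC class I, and Nlrc5, the transactivator of MHC class I genes, differed by -0.07 and 0.08 between washout and control (95% intervals -0.18 to 0.04 and -0.05 to 0.21). At an unadjusted p under 0.05, limma gave 0 of 3 between washout and control, Tap1 at -0.15 between B/B 1 h and control, and Tapbp at -0.12 between washout and B/B 1 h.

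Set beside the response element, the called members fell on both sides. Between washout and control, 0 of 14 members with the core in a window were higher and 3 lower, namely Irgm1, Ifitm3 and Eif2ak2, whose windows are printed above. Of 12 members with a window and no core, 3 were higher, namely Trim25, Znfx1 and Xaf1, and 1 lower, Isg20. The median difference was -0.02 with the core and 0.04 without. At 1 h the members with the core ranged from -0.47, for Eif2ak2, to 0.51, for Ifit3, and those without from -0.18 to 0.13. Over all genes matched to a window by symbol, 13.1% of 657 with the core were higher in washout than in control and 10.5% lower, beside 15.4% and 12.3% of 16333 without it. Only exact matches were counted. A window filed without the core may hold GAAA repeats at another spacing, as those of Xaf1 and Ifnb1 do. No match in a window of 300 bases also says nothing of sequence farther away.

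**Figure D3:**
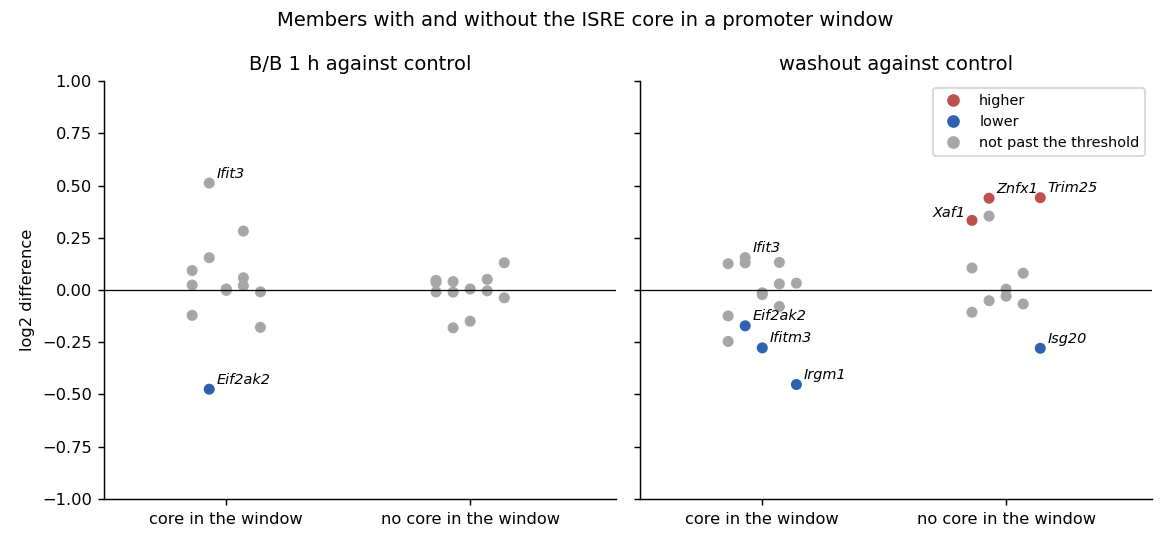
Each point is the log2 difference of 1 of the 26 measured members with a promoter window, split by whether a window held the response element core, in a panel for B/B 1 h over control and a panel for washout over control. Between washout and control the 3 higher members, Trim25, Znfx1 and Xaf1, have no core in the window and 3 of the 4 lower ones, Irgm1, Ifitm3 and Eif2ak2, have one. Only exact matches count as a core, so variants of it may lie in the other windows.

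Other genes of the pathway were taken from a list of 124, of which 111 were measured. The list was chosen with earlier results of these data known, so its shares beside those of all genes are no test of the pathway. After washout 22 of them (19.8%) were higher than control and 15 (13.5%) lower, beside 14.5% and 11.7% of all genes. At 1 h 3 (2.70%) were higher and 2 (1.80%) lower, beside 1.01% and 1.88% of all genes. Of the signalling genes between receptor and nucleus, 6 of 8 were higher and 0 lower after washout (6 and 0 at an unadjusted p under 0.05 in limma). Stat2, which acts with IRF9 on the response element, read 7.88 ± 0.060 in washout, 7.02 ± 0.017 in B/B 1 h and 6.67 ± 0.096 in control (log2, SD, n = 3 each), which is 2.32-fold over control in washout (limma adjusted p 6.0e-07). Jak2 and Tyk2, receptor kinases, and Irf2, a repressor of interferon-responsive promoters, rose by 0.73, 0.44 and 0.33 (log2). Jak1 and Irf9 rose by 0.15 and 0.29. Irf1, the activator that interferon gamma raises quickly, was not called in any comparison and differed by 0.06 between washout and control.

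Receptor genes were 2 higher and 0 lower of 6 after washout against control (3 and 0 at an unadjusted p under 0.05 in limma). Of all genes, 14.5% were higher and 11.7% lower, and these shares stand beside each class count given here. Ifnar1, the subunit of the type I receptor that carries TYK2, read 9.34 ± 0.023 in washout, 8.47 ± 0.053 in B/B 1 h and 8.74 ± 0.0036 in control (log2, SD, n = 3 each). It fell by 0.27 at 1 h and rose by 0.60 in washout against control (limma adjusted p 0.00931 and 6.4e-06). Ifngr2, of the interferon gamma receptor, rose by 0.39. Of the sensing genes upstream of interferon, 4 of 11 were higher and 2 lower. Tlr3, the endosomal double-stranded RNA receptor, rose 2.17-fold, Ikbke, a kinase that acts with TBK1, 1.55-fold and Irf3 1.28-fold, while Ticam1, the adaptor that TLR3 signals through, fell by 0.89 and Tbk1 by 0.22 (log2). Irf7, which amplifies interferon production and is itself induced by it, stood at -0.10 against control (limma adjusted p 0.439) and fell by 0.24 against B/B 1 h (log2, limma adjusted p 0.0399). Irf7 read 4.09, 4.12 and 4.25 in washout and 4.56, 4.38 and 4.25 in B/B 1 h arrays, with an identical value on the last array of each. What its call owes to single arrays was not tested. Of 18 interferon ligand genes, 0 were higher and 1 lower, Ifna2 at -0.19 (0 and 3 at an unadjusted p under 0.05 in limma). Of these 18, 9 were dim, Ifna2 among them, and such signal was not separated from background here. For the dim ligand genes these counts therefore cannot show whether the transcript was absent, unchanged or lower. Among 6 brakes on the pathway 0 were higher and 2 lower (0 and 3 at an unadjusted p under 0.05 in limma), Socs3 at -0.83 and Socs1 at -0.25.

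Of 62 other interferon-stimulated genes outside the 33, 10 were higher and 10 lower in washout than in control. Of all genes, 14.5% were higher and 11.7% lower. Trim21, an intracellular antibody receptor with ubiquitin ligase activity, rose 2.58-fold, at 7.37 ± 0.084 in washout, 5.84 ± 0.093 in B/B 1 h and 6.00 ± 0.077 in control (log2, SD, n = 3 each; limma adjusted p 7.8e-07). Zc3hav1, which binds CG-rich viral RNA, Tor3a and Apol9b rose by 0.71, 0.63 and 0.60. Lgals9, the gene of galectin 9, fell by 1.11, Ifitm2 by 0.98, the RNA helicase gene Mov10 by 0.87 and the immunoproteasome subunit gene Psmb10 by 0.45 (log2). At 1 h, 2 of the 62 were higher and 0 lower (7 and 6 at an unadjusted p under 0.05 in limma). Of all genes, 1.01% were higher and 1.88% lower at 1 h. The 2 higher genes were Cxcl10, a chemokine gene that NF-kB also drives, at 3.07, and Rnf213 at 0.31 (log2). That difference of Cxcl10 was the highest among all 22180 genes at 1 h. Cxcl10 was 5.12 ± 0.0033 in washout, 8.16 ± 0.046 in B/B 1 h and 5.09 ± 0.047 in control (log2, SD, n = 3 each).

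**Figure D4:**
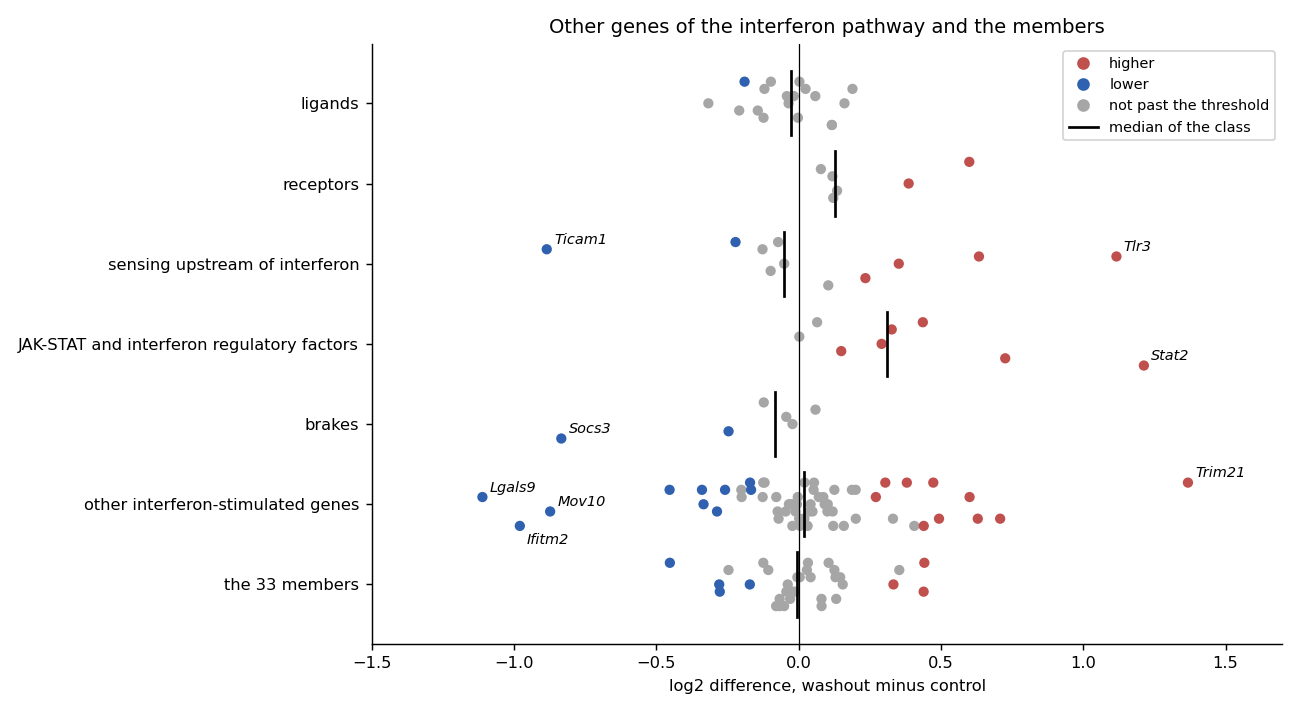
Points are log2 differences between washout and control for the 111 measured genes of the pathway list by class and, in the lowest row, the 33 members; the vertical bar is each class's median. The JAK-STAT class, of a list chosen with earlier results known, has 6 of 8 genes higher, against 14.5% of all genes, and the members' median is at 0.00.

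Leukocytes make and answer interferon, so their markers were read beside these genes. The labels name only the 1 cultured fibroblast line in all groups and no leukocytes. Of 13 measured leukocyte markers, 7 were among the lowest 30% of genes by mean, Adgre1, Lyz2 and Ptprc among them. In B/B 1 h 4 were higher and 0 lower than in control, beside 1.01% and 1.88% of all genes. At an unadjusted p under 0.05 in limma these counts were 5 and 1. The 4 were Cd14, Cd68, Cd79a and Adgre1. After washout 1 was higher than in control and 2 lower, beside 14.5% and 11.7% of all genes. At an unadjusted p under 0.05 in limma these counts were 1 and 2, and the median difference over the 13 was 0.02. Cd14 was the one higher, at 9.30 in washout, 8.44 in B/B 1 h and 7.83 in control (log2), and Lyz2 and Ptprc were lower. The summed linear signal of all 13, Cd14 included, was 1059 to 1094 in washout, 888 to 952 in B/B 1 h and 665 to 694 in control arrays. Ptprc, the defining pan-leukocyte gene, was among the dim ones, at 3.20 in washout, 3.35 in B/B 1 h and 3.39 in control, and its difference between washout and control was -0.19 (limma adjusted p 0.0247). The markers' part in the differences of the interferon-stimulated genes was not tested. In such bulk samples fewer cells of a type and less RNA per cell cannot be told apart.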

How the data were processed

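The authors deposited one log2 value per probe set and array. Quantiles were near-equal but not identical on the 9 arrays, from which a normalization between arrays was inferred. The submitters' processing notes name Partek 6.6. Biotinylated cRNA was made from Trizol RNA, per the labels' protocols. The summary method, the annotation and detection calls were not given in the sources used here. GEO's platform annotation gave 1 symbol to 23521 of the 41345 probe sets, more than 1 to 1814 and none to 16010. Groups came from the treatment labels.

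Differences were fitted in R 4.3.3 with limma 3.58.1, in 1 model of 3 group means with moderated tests per comparison and an F-test (6 residual and 3.38 prior degrees of freedom), tested on simulated data. The number of arrays limits the precision. Motifs were counted in Python 3.11.15.

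The members and lists were chosen with earlier results of these data known. Array values were given for Ifnb1, for up to 8 called members per comparison with the largest differences, and for others named after their values were seen. Of the pathway list, up to 4 called genes per class were named, and Jak1, Irf9, Irf1, Irf7, Tbk1, Zc3hav1, Tor3a, Apol9b and Psmb10 besides, after their values were seen. In the list, 2 older symbols were updated through RefSeq. The alternatives tried were probe sets averaged, centred array medians, quantile normalization, leaving out the lowest 30% of genes, a variance trend, no moderation, array weights, a threshold of 0.01, only the 2 groups compared, and each array left out in turn.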

Additional observations from a re-analysis of the deposited data

How the results depend on the processing

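Counts of members called stayed within 1.5 times of those reported under the alternatives run, with 2 exceptions. Members lower in washout than in B/B 1 h, 2 as reported, were 4 with quantile normalization, when Irgm1 and Tapbp passed, 4 with the lowest 30% of genes left out, when Irgm1 and Cmpk2 passed, and 2 to 4 with 1 array left out. Members higher at 1 h than in control, 0 as reported, were 1 with a variance trend, Gbp7. All calls in single members held at the 0.05 threshold under the alternatives run on them, except that of Eif2ak2 between washout and control, which was lost in 4 of 17, each with 1 array left out. No called difference reversed. Of differences not called, 1, 2 and 5 passed in at least 1 alternative between B/B 1 h and control, between washout and control, and between washout and B/B 1 h, and 19, 12 and 13 changed sign in at least 1. With the lowest 30% left out, 12 members had no value, and only 2 groups give no F-test. No paired analysis was possible because the labels carry no replicate numbers. The 12 dim members limit what these arrays can show, since signal there was not told apart from background.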

Other observations

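Identical deposited values recurred across arrays. In 13 of 33 members (39.4%) at least 1 pair of arrays carried the same value to the last deposited digit, and in 8 (24.2%) 3 or more arrays did, beside 47.3% and 26.7% of all 22180 genes. Oasl1 had its commonest value on 5 arrays of 9, and Nlrc5 and Rsad2 on 4. The spread between replicates of such genes is that of the summarised values, and how the ties arose was not tested.

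In 2 members a gene had 2 probe sets. The second probe set of Ifi35 read 4.78 to 5.08 in washout, 5.12 to 5.26 in B/B 1 h and 4.81 to 5.29 in control arrays, and that of Tapbp 5.77 to 5.87, 5.66 to 5.97 and 5.83 to 5.94. At the second probe set of Ifi35 all washout arrays lay below all B/B 1 h arrays. At the Ifi35 probe set used, these 2 groups overlapped and washout stood 0.13 above B/B 1 h (log2), so the 2 probe sets differ in direction. All 3 groups overlapped at the second probe set of Tapbp.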
